A study of Mus musculus with 20 samples.

Results

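The genes of serine synthesis and of folate one-carbon metabolism were examined for binding of ATF4, the bZIP transcription factor of the integrated stress response, in C2C12 cells, an immortalised line of mouse myoblasts. The 9 genes were chosen by name, with earlier results of these data known, out of 21631 protein-coding genes of the autosomes and X. Phgdh, Psat1 and Psph encode the enzymes of serine synthesis in the cytosol. Shmt2, Mthfd2, Mthfd1l and Aldh1l2 encode folate enzymes of the mitochondrion, and Shmt1 and Mthfd1 folate enzymes of the cytosol. Wild-type cells received either the solvent DMSO or thapsigargin at 100 nM for 6 h. Thapsigargin blocks the calcium pump of the endoplasmic reticulum and so causes stress in that compartment. ATF4 was mapped by CUT&Tag, in which an antibody directs a transposase to the protein on chromatin, in 2 samples per treatment. Both groups share the parental line with no transgene or deletion named in the labels, and the sources used here do not say whether the samples came from separate cultures.

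The measurements are the authors' peak positions, with 1 list per treatment, 803 peaks in DMSO and 8619 in thapsigargin. The lists hold no height, score or read depth and no value per replicate, so no result below carries a replicate error or a test, and a peak missing from a list may lie under the authors' threshold. Peak width is given in bp, with the share of the same list that is narrower. Width is not occupancy, and it also depends on depth and threshold. Median widths were 856 bp for the DMSO list and 1037 bp for the thapsigargin list. The lists hold no expression values, so the cell identity could not be compared with marker genes.

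As background, serine is made from a glycolytic intermediate by Phgdh, which commits the intermediate to the pathway, then Psat1 and Psph. Serine hydroxymethyltransferases, Shmt2 in mitochondria and Shmt1 in the cytosol, split serine into glycine and a carbon unit carried on tetrahydrofolate. In mitochondria Mthfd2 oxidises that unit, Mthfd1l releases it as formate and Aldh1l2 oxidises it to carbon dioxide. In the cytosol the trifunctional enzyme Mthfd1 takes up formate for purine, thymidylate and methyl-group synthesis. ATF4 is known as an activator of serine synthesis and mitochondrial folate genes during stress.

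Counted over the genes, 6 of 9 had a DMSO peak whose centre was at most 1 kb from an end of the gene, as did 1.29% of all protein-coding genes. In thapsigargin 7 of 9 did, against 15.1% of all genes. With a distance of at most 500 bp these counts fell to 2 of 9 (22.2%) in each treatment, against 0.962% of all genes in DMSO and 12.5% in thapsigargin, so that the thapsigargin share was then near that of all genes. Within 1 kb, the 6 genes with a DMSO peak were all among the 7, and 1.27% of all genes had a peak at an end in both lists. The 6 were Phgdh, Psat1, Shmt2, Mthfd2, Mthfd1l and Aldh1l2, and Psph was listed in thapsigargin alone. By listed starts in place of both gene ends, 5 of 8 had a DMSO peak within 1 kb, against 1.38% of 17274 genes with a listed start, and 6 of 8 a thapsigargin peak, against 16.4%. Several of these genes are textbook ATF4 targets and were named with earlier results of these data known, so the counts are a description and not a survey.

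Set by compartment, the mitochondrial enzymes had 4 of 4 genes with a peak in each treatment and the cytosolic ones 2 of 5 in DMSO and 3 of 5 in thapsigargin. The cytosolic count came wholly from serine synthesis, with 2 of 3 and 3 of 3, while the cytosolic folate enzymes had 0 of 2. Over all genes the share was 1.29% in DMSO and 15.1% in thapsigargin, and beside these shares a count of 0 of 2 cannot be read as a difference. At 500 bp the contrast was not seen, with 1 of 4 mitochondrial and 1 of 5 cytosolic genes in each treatment. The mitochondrial gene was then Mthfd2, through peaks nearer to the end of the adjoining gene Mob1a. The cytosolic gene was Psat1 in DMSO and Psph in thapsigargin, where the Psph peak was nearer to the end of Cct6a. For the reaction of serine with tetrahydrofolate, the mitochondrial Shmt2 had a peak in each treatment and the cytosolic Shmt1 none. For the interconversion of folate-bound carbon units, Mthfd2 and Mthfd1l in mitochondria had peaks and the cytosolic Mthfd1 none. The groups hold 2 to 4 genes, and the difference between them was not tested.

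**Figure D1:**
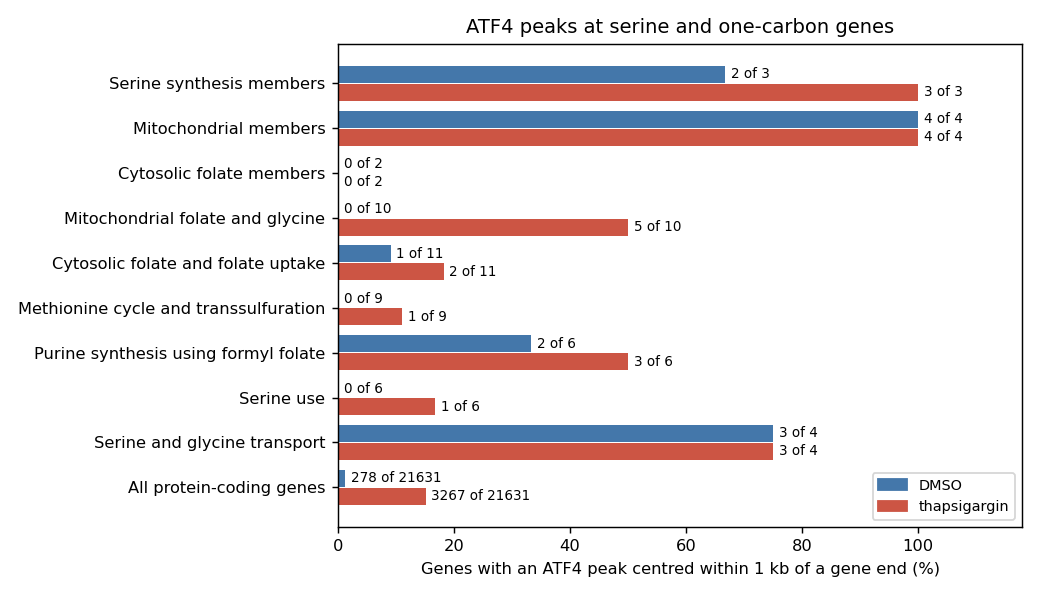
Share of genes, in percent, whose end lies at most 1 kb from the centre of an ATF4 peak in DMSO (blue) and thapsigargin (red), for the members by pathway, for 6 lists of other pathway genes and for all protein-coding genes, with counts beside the bars. Mitochondrial members stand at 4 of 4 in both treatments and cytosolic folate members at 0 of 2.

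The DMSO peak reached the start of 5 genes, and the windows around those starts are printed here. At all but Psat1, where the peak extends past the window, they show where the peaks of unstressed cells begin. Each window runs from 250 bases before to 50 after a start listed in RefSeq (build GRCm38.p6, the assembly that mm10 corresponds to), 5′ to 3′ along the gene. Capitals mark the bases that the DMSO peak covered. Of the 9 genes, 8 matched the table of starts. Aldh1l2 had no entry. Psat1 had 2 entries, of which the outer is shown.
Phgdh, chr3:98339920-98340219, minus strand: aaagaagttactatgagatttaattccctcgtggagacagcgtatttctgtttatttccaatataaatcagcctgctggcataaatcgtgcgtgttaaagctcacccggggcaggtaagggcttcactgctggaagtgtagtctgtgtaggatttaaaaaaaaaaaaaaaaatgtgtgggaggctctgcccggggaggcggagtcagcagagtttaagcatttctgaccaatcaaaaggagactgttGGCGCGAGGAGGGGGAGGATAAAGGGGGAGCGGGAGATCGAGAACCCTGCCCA
Psat1, chr19:15925010-15925309, minus strand: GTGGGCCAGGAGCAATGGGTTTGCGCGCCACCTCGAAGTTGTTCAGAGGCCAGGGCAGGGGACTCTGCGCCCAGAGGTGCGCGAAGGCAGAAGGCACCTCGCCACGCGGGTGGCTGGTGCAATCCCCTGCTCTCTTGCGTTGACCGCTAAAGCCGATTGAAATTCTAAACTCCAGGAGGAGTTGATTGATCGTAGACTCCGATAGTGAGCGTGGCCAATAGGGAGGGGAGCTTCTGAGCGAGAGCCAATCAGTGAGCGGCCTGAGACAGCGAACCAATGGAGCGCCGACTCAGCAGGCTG
Shmt2, chr10:127522395-127522694, minus strand: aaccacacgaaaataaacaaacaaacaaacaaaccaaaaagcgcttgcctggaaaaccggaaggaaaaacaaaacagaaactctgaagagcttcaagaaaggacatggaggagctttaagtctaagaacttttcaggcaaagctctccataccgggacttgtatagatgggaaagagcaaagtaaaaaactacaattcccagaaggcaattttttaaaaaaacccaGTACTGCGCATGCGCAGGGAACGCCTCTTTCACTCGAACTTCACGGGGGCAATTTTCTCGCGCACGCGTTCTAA
Mthfd2, chr6:83317555-83317854, minus strand: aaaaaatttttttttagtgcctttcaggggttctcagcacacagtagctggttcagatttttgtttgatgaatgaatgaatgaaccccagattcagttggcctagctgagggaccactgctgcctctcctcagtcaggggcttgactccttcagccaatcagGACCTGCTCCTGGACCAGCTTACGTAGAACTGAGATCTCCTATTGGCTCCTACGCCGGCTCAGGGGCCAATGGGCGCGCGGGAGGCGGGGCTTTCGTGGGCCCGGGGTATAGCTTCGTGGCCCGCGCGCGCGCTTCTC
Mthfd1l, chr10:3972825-3973124, plus strand: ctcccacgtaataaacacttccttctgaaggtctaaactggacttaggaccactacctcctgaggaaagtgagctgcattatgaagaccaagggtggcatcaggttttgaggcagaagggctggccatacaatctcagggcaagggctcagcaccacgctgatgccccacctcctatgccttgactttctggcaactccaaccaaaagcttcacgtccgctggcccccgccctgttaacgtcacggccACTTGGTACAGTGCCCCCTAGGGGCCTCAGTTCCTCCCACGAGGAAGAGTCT
The DMSO peak covered 53 of the 300 bases at Phgdh, 74 at Shmt2, 138 at Mthfd2 and 52 at Mthfd1l, always the part nearest to and past the start. At Psat1 it covered all 300. In thapsigargin the peak covered 82 bases at Phgdh, 145 at Shmt2 and 151 at Mthfd1l, and all 300 at Mthfd2 and Psat1.

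The serine synthesis genes are described next. Phgdh (gene ID 236539, chr3:98313171-98339969) had a peak from 98338636 to 98339972 in DMSO, 1337 bp wide and wider than 89.5% of the DMSO list. In thapsigargin the peak ran from 98338489 to 98340001, 1513 bp wide and wider than 86.1% of its list. The DMSO peak lay inside the thapsigargin peak, which was 1.13 times as wide. Both were centred inside the gene, 665 bp and 724 bp past the start, and reached only 3 bp and 32 bp before it.

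Psat1 (gene ID 107272, chr19:15905123-15925059), the aminotransferase of the pathway, had a DMSO peak from 15924613 to 15925548 that straddled the start, with its centre 21.5 bp from the gene end. Its width of 936 bp was near the middle of the DMSO list, of which 61.1% was narrower. The thapsigargin peak ran from 15923474 to 15925578 and was 2105 bp wide, wider than 98.2% of its list. It was 2.25 times as wide as the DMSO peak, and the added length lay almost wholly on the gene side, with 1139 bp into the gene against 30 bp outward. Both peaks also covered the inner of the listed starts, 437 bp inside the outer.

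Psph (gene ID 100678, chr5:129765558-129787443), the phosphatase that completes serine, differed from its partners in the pathway in having no DMSO peak at its start. In thapsigargin a peak from 129786766 to 129787753, 988 bp wide, lay over the start, with its centre 183.5 bp from the end of Psph and 96.5 bp from the end of Cct6a, a chaperonin subunit gene next to it. The peak cannot be assigned to either gene. Inside Psph, 8.39 kb past the start, a DMSO peak of 872 bp lay within a thapsigargin peak of 1792 bp, 2.06 times as wide and wider than 94.7% of its list. The gene body site was thus listed in both treatments and the site at the start in thapsigargin alone.

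All 4 mitochondrial genes carried a peak at a gene end in both treatments. Shmt2 (gene ID 108037, chr10:127517123-127522444) had the widest DMSO peak around the 9 genes, from 127520901 to 127522468, 1568 bp wide and wider than 96.4% of the DMSO list. The thapsigargin peak, from 127520774 to 127522539, was 1766 bp wide, 1.13 times the DMSO width, and enclosed it. The centres lay 759.5 bp and 787.5 bp past the start, in a gene 5.32 kb long.

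Mthfd2 (gene ID 17768, chr6:83305704-83326011) had peaks at 2 places in each treatment. Its listed start lies 8.41 kb inside the outer end of the gene span. Around that start the DMSO peak ran from 83316290 to 83317692, 1403 bp wide and wider than 91.7% of its list, and the thapsigargin peak from 83316246 to 83317981, 1736 bp wide and wider than 93.3%. The other pair lay at the outer end of the span, which adjoins Mob1a, a gene of the Hippo pathway. There the DMSO peak was 535 bp wide and the thapsigargin peak 1191 bp, 2.23 times as wide, with the centre 223 bp and 260 bp from the end of Mob1a and 246 bp and 283 bp from that of Mthfd2. The rule of 1 kb from a gene end therefore counted Mthfd2 through the narrower pair beside Mob1a, and the wider pair at the listed start counted as gene body. Mthfd2 also had a DMSO and a thapsigargin peak under the rule of 1 kb from a listed start.

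Mthfd1l (gene ID 270685, chr10:3972892-4167081) is the longest of the 9 genes, at 194 kb, and its only peaks inside the gene were those at the start. The DMSO peak, from 3973073 to 3974063, was 991 bp wide, and the thapsigargin peak, from 3972974 to 3974175, was 1202 bp, 1.21 times as wide. Their centres lay 493 bp and 499.5 bp past the listed start, a shift of 6.5 bp between the treatments. Neither peak stood far from the middle of its list, as 67.1% and 65.4% of peaks were narrower.

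Aldh1l2 (gene ID 216188, chr10:83487447-83534146) had a DMSO peak from 83532967 to 83534159, 1193 bp wide, and a thapsigargin peak from 83532811 to 83534116, 1306 bp. The ratio of 1.09 was the lowest of the overlapping peaks around the 9 genes. Of all 799 overlapping pairs in the lists, 88.4% had the DMSO peak wholly inside. At Aldh1l2 96.4% of the DMSO peak was covered, the only pair around the 9 genes not wholly inside. The DMSO peak reached 13 bp beyond the gene end, whereas the thapsigargin peak stopped 30 bp short of it. A second thapsigargin peak, from 83530201 to 83531796 and 1596 bp wide, was centred 3.15 kb inside the gene and had no DMSO overlap. Aldh1l2 was the only member with a further peak of the thapsigargin list alone inside the gene.

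**Figure D2:**
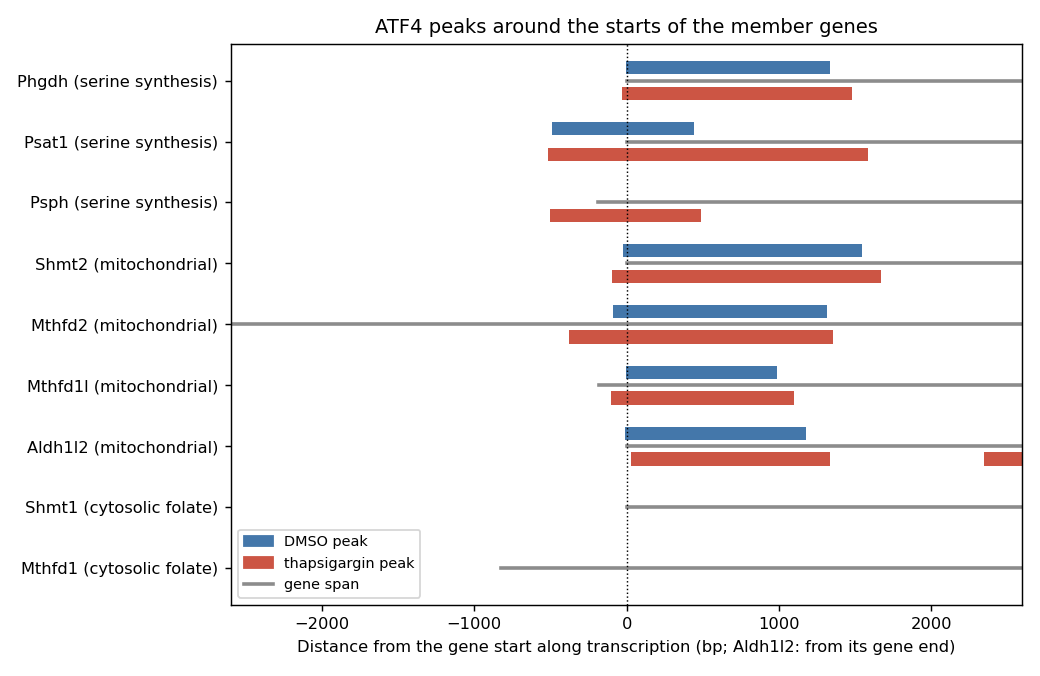
DMSO peaks (blue) and thapsigargin peaks (red) of ATF4 drawn to scale around the start of each of the 9 genes, in bp along the direction of transcription, with the gene span in grey; Aldh1l2, without a listed start, is drawn from the gene end with its peak. At Phgdh, Shmt2, Mthfd2, Mthfd1l and Aldh1l2 the DMSO peaks begin within 88 bp of that point and run into the gene, while the rows of Shmt1 and Mthfd1 are empty.

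The cytosolic folate genes had no peak at a gene end in either treatment. For Shmt1 (gene ID 20425, chr11:60788897-60811265) the nearest thapsigargin peak lay 19.4 kb from the gene end and the nearest DMSO peak 251 kb away. That thapsigargin peak was 481 bp wide, wider than only 3.86% of its list, and was centred 62 bp from the end of Dhrs7b. Mthfd1 (gene ID 108156, chr12:76254406-76319820) had no peak within 50 kb in either list, and the nearest lay 84.2 kb away in thapsigargin and 147 kb away in DMSO.

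The widths at overlapping peaks varied among the members. Over all 799 DMSO peaks that overlapped a thapsigargin peak, the thapsigargin peak was a median 1.56 times as wide, with quartiles of 1.28 and 1.99. Aldh1l2 at 1.09, Phgdh and Shmt2 at 1.13 and Mthfd1l at 1.21 lay below the lower quartile. So did Mthfd2 at 1.24 at its listed start. Psat1 at 2.25 lay above the upper quartile, as did the Mthfd2 end beside Mob1a at 2.23 and the site inside Psph at 2.06. The highest ratio, 2.57, was at the site 35 kb before Phgdh. The site past the end of Shmt2, at 1.41, lay between the quartiles. Of the 7 pairs at a start or gene end, the thapsigargin peak was thus at most 1.24 times as wide as the DMSO peak in 5, the exceptions being Psat1 and the Mthfd2 end beside Mob1a. This ratio is taken over the DMSO width, and the comparison with all pairs was not matched for that width. The DMSO peaks in those 5 pairs were 991 bp to 1568 bp wide, against a median of 856 bp for the DMSO list. At the pairs above the upper quartile they were 535 bp to 936 bp wide. Whether the low ratios differ from those at other DMSO peaks of like width was not tested.

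**Figure D3:**
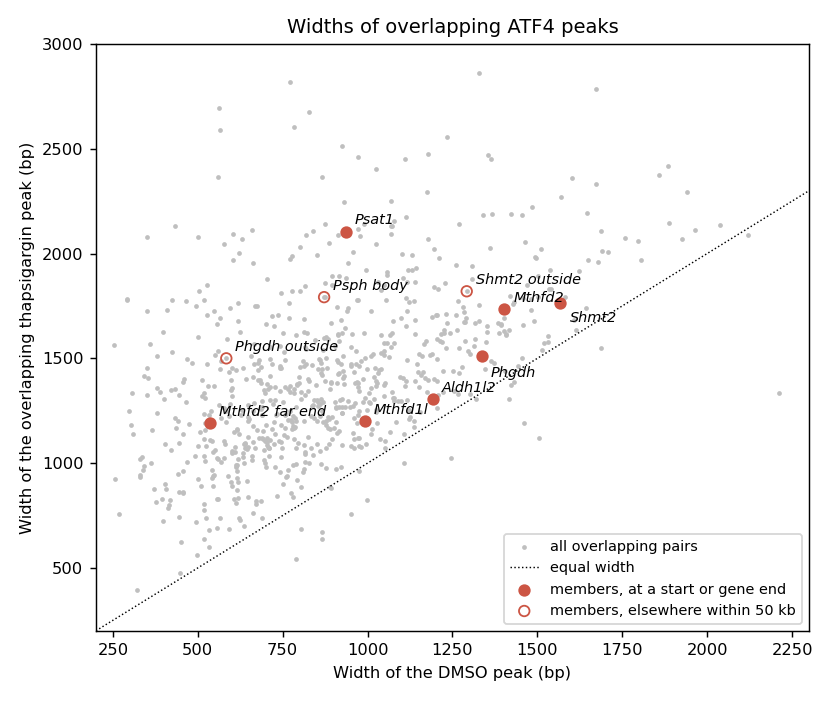
Width in bp of each DMSO peak against that of the thapsigargin peak overlapping it, with all 799 pairs in grey, members at a start or gene end as filled red points, other sites within 50 kb as open points, and equal width as a dotted line. Aldh1l2, Phgdh, Shmt2 and Mthfd1l lie close to the line and Psat1 well above it.

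The position of the peaks relative to the start was compared with that at other genes, a measure chosen after the members' values had been seen. In DMSO the centre lay 665 bp past the start at Phgdh, 759.5 bp at Shmt2, 613 bp at Mthfd2 and 493 bp at Mthfd1l, and 21.5 bp before it at Psat1. The median of these 5 was 613 bp, against 21 bp over the 239 genes whose listed start had a DMSO peak centre at most 1 kb away. Centres at 500 bp or more past the start were found at 3 of the 5 and at 8.79% of the 239. The DMSO peak reached 2 bp before the start at Mthfd1l, 3 bp at Phgdh, 24 bp at Shmt2 and 88 bp at Mthfd2, and 489 bp at Psat1. A reach of under 100 bp was found at 4 of the 5 and at 19.7% of the 239, whose median was 432 bp. Aldh1l2, measured from its gene end, was like the 4, with a centre 583 bp inside and a reach of 13 bp.

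In thapsigargin the 6 genes with a listed start and a peak there had a median centre of 495 bp past the nearest listed start, against 0.2 bp over 2828 genes. Shmt2 and Phgdh again had the centres farthest past the start, at 787.5 bp and 724 bp, and Psph had its centre 6.5 bp before it. The peaks reached farther before the start than in DMSO at these genes, to 32 bp at Phgdh, 95 bp at Shmt2, 101 bp at Mthfd1l and 377 bp at Mthfd2. The reach was under 100 bp at 2 of 6, against 13.2% of the 2828 genes. The limit of 1 kb on the distance of the centre bounds these values from above, for the members and for all genes alike.

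**Figure D4:**
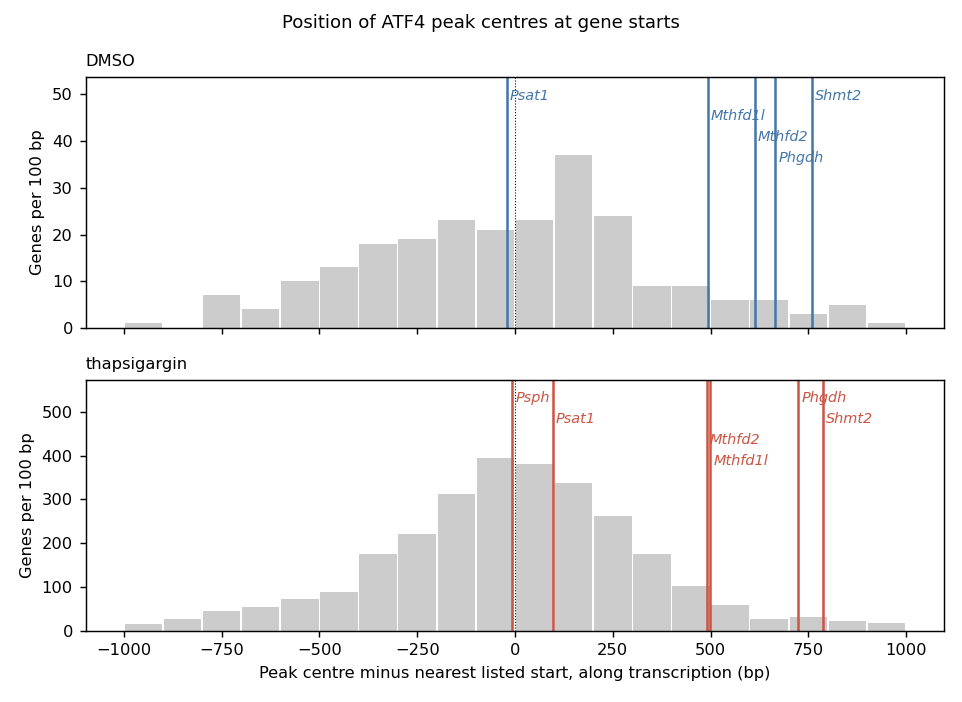
Histograms in grey of the signed distance, in bp along transcription, from the nearest listed start to the peak centre, for 239 genes in DMSO (upper) and 2828 in thapsigargin (lower), in bins of 100 bp, with members as coloured lines. In DMSO 4 of the 5 members lie between 493 bp and 759.5 bp, to the right of most genes.

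The 9 windows of the 8 genes with a listed start were searched on both strands for 5 motifs, counted with overlaps. TGATGNAA, the core of the combined C/EBP and ATF response element to which ATF4 binds with a C/EBP partner, was found in none of the 9, and in 3.45% of the 21045 windows of protein-coding genes. Its stricter form TGATGCAA was in none, against 0.851%, and is contained in it. The cAMP response element TGACGTCA was in none, against 2.26%, the AP-1 site TGANTCA in none, against 7.04%, and the C/EBP site TTGCNNAA in none, against 10.3%. Shorter cores, chosen after these counts, were common: TGACG was in the windows of Mthfd1l, Psph and Shmt1 and in 23.8% of all windows, and TGATG in those of Mthfd1, Mthfd1l and Mthfd2 and in 34.7%. The absence of a motif concerns only these letters in these windows. Most of the length of the peaks at Phgdh, Shmt2, Mthfd2 and Mthfd1l lay outside the windows and was not searched.

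In all, 10 DMSO peaks and 16 thapsigargin peaks were centred in the 9 genes or within 50 kb of them, of which 7 and 8 were those at a start or gene end described above. Of the genes, 7 had a DMSO peak in this reach, against 8.01% of all genes, and 8 a thapsigargin peak, against 51.1%, so that in thapsigargin the reach by itself marks about as many genes as not. All 10 DMSO peaks overlapped a thapsigargin peak, as did 799 of the 803 peaks of the whole DMSO list. Conversely 10 of the 16 thapsigargin peaks (62.5%) overlapped a DMSO peak, against 9.25% of the whole thapsigargin list. This share rests mainly on the starts and ends, where 7 of 8 overlapped, whereas elsewhere in this reach 3 of 8 did. The 6 thapsigargin peaks without an overlap ranged from 481 bp to 2189 bp in width.

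The widest of these 6 lay 16.5 kb before the start of Phgdh, from 98355356 to 98357544, wider than 98.7% of the list, and Phgdh was its nearest protein-coding gene. Farther out, 35 kb before Phgdh, a DMSO peak of 584 bp lay inside a thapsigargin peak of 1500 bp, a ratio of 2.57, with Zfp697 the nearest gene at 6.96 kb. Past the end of Shmt2, peaks of 1292 bp in DMSO and 1820 bp in thapsigargin lay 4.79 kb and 4.57 kb from the gene end, nearer to the ends of Ndufa4l2, at 3.06 kb and 3.28 kb, and Stac3. A thapsigargin peak of 996 bp lay 33.9 kb past the far end of Mthfd1l, and another of 922 bp, 9.75 kb from Aldh1l2, was centred 280.5 bp from the end of Washc4. Distance assigns a peak to no target gene, and of the peaks in this reach 6 in DMSO and 9 in thapsigargin had a member as the nearest gene.

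More than 1 kb inside a gene, a DMSO peak was found at Mthfd2 and Psph, where 1.3% of all genes had one, and a thapsigargin peak at Mthfd2, Psph and Aldh1l2, where 10.1% did. The peak inside Mthfd2 is the one at its listed start. Shmt2 at 5.32 kb, Psat1 at 19.9 kb, Shmt1 at 22.4 kb, Phgdh at 26.8 kb, Mthfd1 at 65.4 kb and Mthfd1l at 194 kb had none there.

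**Figure D5:**
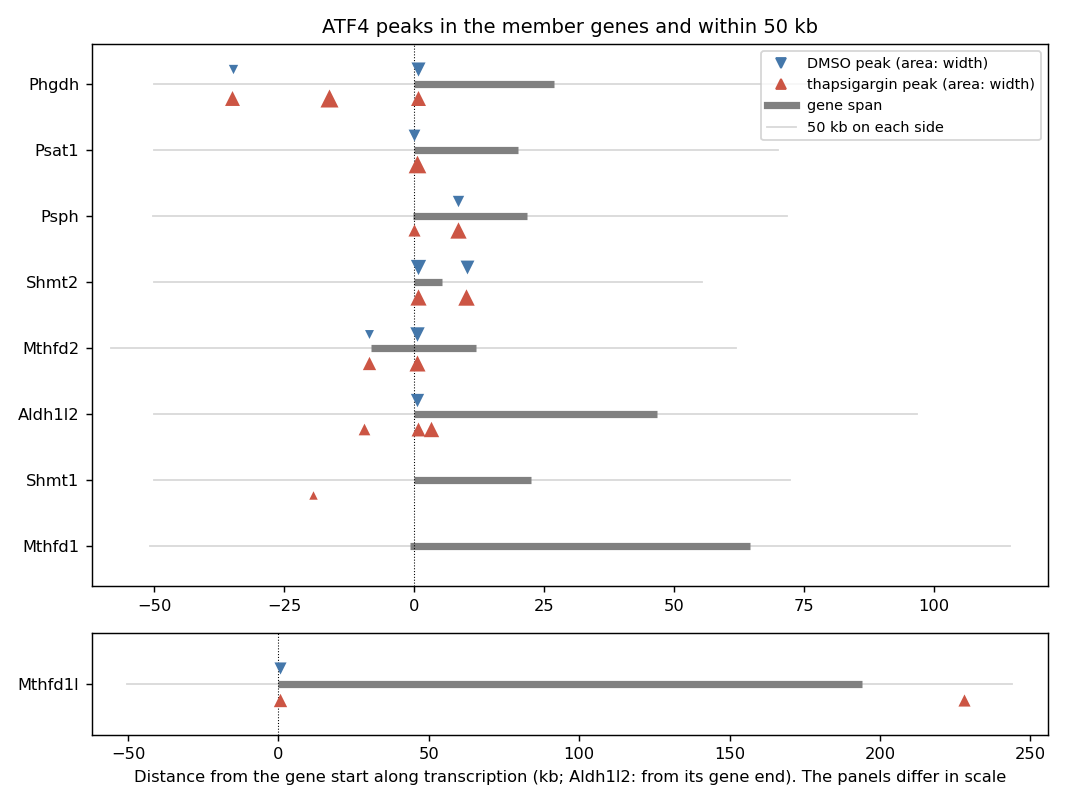
ATF4 peaks in the 9 genes and within 50 kb on each side, in kb from the start along transcription, with DMSO peaks as blue and thapsigargin peaks as red triangles whose area follows peak width; Mthfd1l is drawn on its own scale. The wide thapsigargin peak 16.5 kb before Phgdh has no blue partner, and Mthfd1 has no peak.

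Other genes around the pathway were taken from 6 lists of 46 genes in all, of which 15 (32.6%) had a thapsigargin peak at a gene end and 6 (13%) a DMSO peak, beside 15.1% and 1.29% of all genes. Of 10 further genes of mitochondrial folate and glycine metabolism, 5 had a thapsigargin peak and 0 a DMSO peak. They included Dld, a subunit shared by the glycine cleavage system (1601 bp), Mthfd2l, a relative of Mthfd2 (1366 bp), Gcsh, the glycine cleavage carrier protein (1149 bp), and Slc25a32, the mitochondrial folate carrier (1064 bp). Beside 1.29% of all genes, a DMSO count of 0 of 10 cannot be read as a difference from the 4 of 4 mitochondrial genes among the 9, which was not tested. Of 11 further genes of cytosolic folate metabolism and folate uptake, 2 (18.2%) had a thapsigargin peak, near the 15.1% of all genes, and 1 (9.09%) a DMSO peak.

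In the methionine cycle and transsulfuration 1 of 9 genes (11.1%) had a thapsigargin peak, near the 15.1% of all genes, and 0 a DMSO peak. That gene was Mat2a, which makes S-adenosylmethionine (1345 bp). In purine synthesis 3 of 6 had one in thapsigargin and 2 in DMSO. Ppat and Paics are neighbours that share 1 peak, 1306 bp wide under thapsigargin and 400 bp under DMSO. Gart, which uses formyl folate, had one of 1112 bp in thapsigargin.

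Among genes of serine use 1 of 6 (16.7%) had a thapsigargin peak, near the 15.1% of all genes, and 0 a DMSO peak. That gene was Sptlc1 of sphingolipid synthesis (989 bp). Among the serine and glycine transporters 3 of 4 had a peak in each treatment. Slc6a9, the glycine transporter, had a thapsigargin peak of 2089 bp and a DMSO peak of 912 bp. The corresponding widths were, for Slc38a2, a neutral amino acid transporter, 1996 bp and 1101 bp, and for Slc1a4, which carries serine, 1613 bp and 1409 bp.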

How the data were processed

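ATF4 was profiled by CUT&Tag in 4 of the 20 samples (2 in DMSO, 2 in thapsigargin), grouped by their titles. The other 8 groups were not used here. The deposited files give peak starts and ends in bp, 1 list per treatment. Trim Galore 0.6.10, Bowtie2, MACS2 2.2.7.1 and mm10 are named without roles per the submitters' processing notes. The sources used here do not give the threshold, any control or how replicates were combined, and depth is unknown.

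Printed positions count from 1. Gene spans and listed starts came from RefSeq tables of GRCm38.p6, without exons, so exons, introns and UTRs were not told apart. A gene counted as having a peak where either end of its span was at most 1 kb from a peak centre, and peaks overlapped when they shared at least 1 bp. No test was run, as each condition has a single list. All 9 members were named, and of each other list at most 4 genes with a peak, in order of thapsigargin width. A few genes within that rule are left out of the text. Members and lists were chosen with earlier results of these data known. The peak assignment was tested on simulated data. Python 3.11.15, numpy 2.4.6, pandas 2.3.3 and matplotlib 3.10.9 were used.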

Additional observations from a re-analysis of the deposited data

How the results depend on the processing

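No paired analysis was possible because each treatment has a single peak list, which also leaves no replicate to omit. Of 49 alternative values, 39 stayed within 1.5 times the main count. With a window of 500 bp, the rule was met by 2 members in DMSO and 2 in thapsigargin, with 1 mitochondrial and 1 cytosolic gene in each, beside 0.962% and 12.5% of all genes, since most centres lie farther inside the gene. With a peak covering the end of the gene span in place of a near centre, 2 mitochondrial genes had one in thapsigargin, as the Mthfd1l and Aldh1l2 peaks began 82 bp and 30 bp inside the span. With overlap of 50% of the thapsigargin peak, 6 of the 10 DMSO peaks around members were matched. Counting only peaks whose nearest gene is a member left 6 in DMSO and 9 in thapsigargin. Windows of 3 kb and 5 kb, listed starts alone and the wider part of each list (402 and 4310 peaks) moved no member count by more than 1.5 times, and the cytosolic folate genes had 0 of 2 under every window and list setting. The unknown depth and threshold limit what a missing peak means.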
